A study of Sus scrofa with 10 samples.

Results

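Kinesins are motor proteins that spend ATP to move along microtubules or to take them apart. The genes described here are those of the pig right ventricle whose symbol begins with KIF and a digit, and 31 of the 12378 measured genes with a symbol met that rule. A further 3260 genes without a symbol could not be searched. The 31 comprise 11 mitotic kinesins (KIF2C, KIF4A, KIF11, KIF14, KIF15, KIF18A, KIF18B, KIF20A, KIF20B, KIF22 and KIF23) and 20 other kinesins. Another 5 genes with such symbols (KIF2B, KIF5C, KIF12, KIF17 and KIF19) had no row in the table and were not analysed here. The members were chosen by symbol, but the family and its mitotic subset were picked out with the CTEPH minus Sham differences of these libraries already known. Those differences are therefore given as a description, with their standard errors (SE) and without a p-value, and the counts of called members support nothing by themselves.

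Mitotic kinesins build the spindle, move and hold chromosomes and organise the midzone at which a dividing cell splits, and most of them are transcribed mainly in late S, G2 and M phase. Transport kinesins carry vesicles, mitochondria, endosomes and mRNA in cells that do not divide, and kinesin-2 motors also supply the primary cilium. Most cardiomyocytes of the adult heart no longer divide, so mitotic kinesin transcripts are usually scarce in ventricular muscle.

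Right ventricular biopsies came from 5 pigs with CTEPH (chronic thromboembolic pulmonary hypertension, a disease of clotted lung arteries that loads the right ventricle), and from 5 Sham pigs. Each pig gave 1 library, numbered s1, s3, s4, s5 and s9 in CTEPH and s2, s6, s7, s8 and s10 in Sham, and values of single libraries are listed below in that order. No source used here gives strain, age, sex, the time after surgery or the way the disease was induced. All values are the deposited log2 values after normalization across libraries, and a difference is the CTEPH mean minus the Sham mean on that scale. A gene is called where a limma fit over all measured genes gave a Benjamini-Hochberg adjusted p under 0.05. Relative depth ranged from 0.727 to 1.55 in CTEPH and from 0.761 to 1.47 in Sham. The levels of cardiomyocyte markers were 17.53 to 17.86 in CTEPH and 17.31 to 17.73 in Sham. Of the 8 markers, 1 (MYL2) was called higher, against 2.83% of all genes. No batch or date is labelled. The samples are bulk tissue, so more cells of a type and more RNA per cell cannot be told apart.

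The mitotic kinesins stood higher in CTEPH ventricles, while 18 of the 20 other kinesins were not called in either direction. Of the 11 mitotic members, 10 were called higher and 0 lower in CTEPH, while over all genes 2.83% were called higher and 1.79% lower (4.62% in either direction). The same 10 had every CTEPH library above every Sham library, a pattern met by 3.70% of all genes. The median difference of the 11 was 2.66, against -0.03 over all genes. Of the 20 other kinesins, 0 were called higher and 2 lower, 1 lay wholly above and 2 wholly below Sham, against 2.87% of all genes wholly below, and the median difference was -0.09. At an unadjusted p under 0.05 the limma fit held 11 of the 11 mitotic and 4 of the 20 other kinesins, against 20.3% of all genes, so the count of the other kinesins lay near that share.

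KIF14, KIF20A, KIF20B and KIF23 work at the spindle midzone and midbody, where the daughter cells part. KIF14, which binds citron kinase at the midbody (chromosome 10, 23123379 to 23177919 of Sscrofa11.1), was at 6.74, 6.21, 7.78, 8.39 and 7.22 in CTEPH libraries, against 2.01, 3.75, 3.75, 3.0027 and 2.01 in Sham libraries. No Sham library came within 2.46 of the lowest CTEPH library, and the difference of 4.36 ± 0.51 was the largest of the 31 kinesins. Whole counts, known up to a factor common to all genes and libraries, could be read back from the low end of the deposited values. KIF14 had 51, 35, 182, 185 and 55 counts in the CTEPH libraries, against 2, 11, 4, 3 and 1 in the Sham libraries. Divided by relative depth these averaged 90.8 ± 54.5 in CTEPH and 3.87 ± 2.6 in Sham (mean ± SD over 5 libraries each), a ratio of 23.5. With 21 counts over the 5 Sham libraries, its level in Sham rests on few counts.

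KIF20A, which brings the chromosomal passenger complex to the midzone (chromosome 2, 140202316 to 140213144), was at 8.36, 9.29, 10.10, 10.33 and 9.60 in CTEPH libraries, against 5.03, 5.62, 5.30, 4.50 and 5.84 in Sham libraries. All CTEPH libraries exceeded all Sham libraries by at least 2.52, the widest such gap of the 31 genes. Its counts were 161, 285, 829, 708 and 280 in CTEPH and 18, 37, 14, 9 and 23 in Sham, a depth-scaled ratio of 21.1, and the log2 difference was 4.27 ± 0.37. RefSeq places 1811 bases of KIF20A over its neighbour CDC23, which differed by 0.20 between the groups, and no source used here states whether the counting used strand. KIF23, the motor of the centralspindlin complex (chromosome 1, 167239973 to 167281250), was at 7.70, 8.49, 9.40, 9.64 and 9.35 in CTEPH libraries, against 6.72, 6.55, 6.65, 6.65 and 6.92 in Sham libraries. The Sham libraries lay within 0.37 of each other and the CTEPH libraries within 1.94, and the difference was 2.22 ± 0.32. RefSeq lays 4071 bases of KIF23 over a long non-coding RNA gene that was not measured under its symbol.

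KIF20B, a midzone motor needed for timely abscission (chromosome 14, 101512685 to 101594703), differed much less than KIF20A. It was at 7.88, 8.14, 8.54, 9.09 and 8.77 in CTEPH libraries, against 7.25, 7.39, 7.63, 7.85 and 7.61 in Sham libraries. The lowest CTEPH library, s1, stood only 0.04 above the highest Sham library, s8, and the difference was 0.94 ± 0.24. When each library was left out in turn, 8 of 10 refits lost its call, those without CTEPH s4, s5 or s9 or any Sham library, with differences of 0.79 to 1.09 over the 10 refits. KIF14, KIF20A and KIF23 kept their calls in all 10 refits, with differences of 4.08 to 4.63, 4.08 to 4.57 and 2.04 to 2.52.

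**Figure D1:**
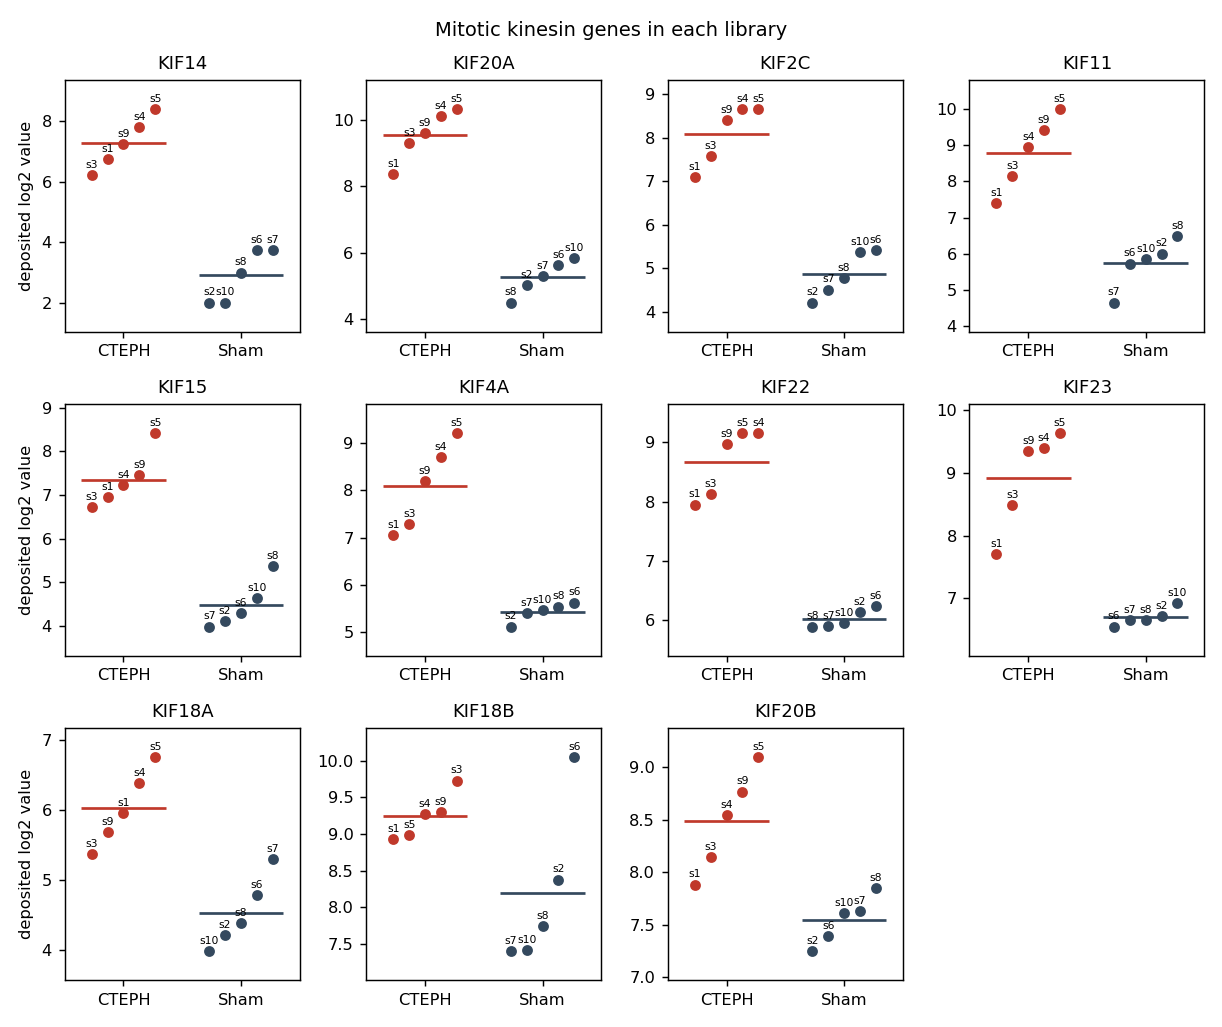
Deposited log2 value of the 11 mitotic kinesins in each library, with CTEPH at the left (red) and Sham at the right (dark blue) of each panel, points named by library and horizontal bars at the group means (n = 5 each). The y axes differ between panels and do not start at 0. In 10 panels every CTEPH point lies above every Sham point, and in the KIF18B panel Sham library s6 is the highest of all at 10.05.

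Among the kinesins of the spindle, KIF11 and KIF15 push the poles apart. KIF11, the tetrameric motor that slides antiparallel microtubules (chromosome 14, 104125839 to 104177381), was at 7.40, 8.14, 8.95, 10.01 and 9.42 in CTEPH libraries, against 6.01, 5.73, 4.65, 6.50 and 5.84 in Sham libraries. Its range was wide in both groups, 2.61 in CTEPH and 1.85 in Sham, but the groups did not overlap and the difference was 3.04 ± 0.46. KIF15, which can keep a spindle bipolar when KIF11 is inhibited (chromosome 13, 27966586 to 28041121), was at 6.95, 6.73, 7.23, 8.42 and 7.45 in CTEPH libraries, against 4.12, 4.30, 3.98, 5.37 and 4.64 in Sham libraries. The difference was 2.88 ± 0.37, with CTEPH library s5 and Sham library s8 the highest of their groups. In counts, KIF15 had 59, 49, 126, 188 and 64 in CTEPH and 9, 16, 5, 17 and 10 in Sham.

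KIF4A and KIF22 are chromokinesins, which bind chromosome arms. KIF4A, which also shortens midzone microtubules with PRC1 (chromosome X, 56319453 to 56447560), was at 7.05, 7.28, 8.70, 9.21 and 8.19 in CTEPH libraries, against 5.11, 5.62, 5.41, 5.54 and 5.47 in Sham libraries. KIF22, which pushes chromosome arms away from the poles (chromosome 3, 18023104 to 18041732), was at 7.95, 8.13, 9.16, 9.15 and 8.97 in CTEPH libraries, against 6.14, 6.24, 5.90, 5.89 and 5.96 in Sham libraries. Both were nearly uniform in Sham, with SDs of 0.19 and 0.16, and more variable in CTEPH, with SDs of 0.92 and 0.59 (n = 5 each). The differences were close to each other, at 2.66 ± 0.38 for KIF4A and 2.65 ± 0.27 for KIF22.

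KIF2C, KIF18A and KIF18B act on microtubule ends. KIF2C, a depolymerase that helps to correct faulty kinetochore attachments (chromosome 6, 166556765 to 166577904), was at 7.09, 7.57, 8.66, 8.66 and 8.40 in CTEPH libraries, against 4.21, 5.41, 4.51, 4.78 and 5.38 in Sham libraries. The difference of 3.22 ± 0.37 was the largest among the spindle and chromosome kinesins, and no Sham library came within 1.68 of a CTEPH library. RefSeq lays 4937 bases of KIF2C over C6H1orf228, which was not measured under that symbol. KIF18A, which damps the oscillation of aligned chromosomes (chromosome 2, 32244073 to 32331392), was at 5.95, 5.37, 6.39, 6.76 and 5.68 in CTEPH libraries, against 4.21, 4.79, 5.30, 4.38 and 3.98 in Sham libraries. Sham library s7 and CTEPH library s3 were only 0.07 apart, and the difference was 1.50 ± 0.37. The counts of KIF18A were low throughout, 29, 19, 71, 60 and 18 in CTEPH and 10, 22, 14, 8 and 6 in Sham. Its call was lost in 6 of the 10 refits, without CTEPH library s4 or s5 or Sham library s2, s6, s8 or s10, and its difference over the 10 refits ranged from 1.32 to 1.69.

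KIF18B was the exception among the 11. It restrains astral microtubules together with KIF2C (chromosome 12, 18426828 to 18448214), and it was at 8.93, 9.73, 9.28, 8.99 and 9.30 in CTEPH libraries, against 8.38, 10.05, 7.40, 7.75 and 7.41 in Sham libraries. Sham library s6 was the highest of the 10 and Sham libraries s7, s8 and s10 were the lowest, so the groups overlapped. The CTEPH libraries lay within 0.80 of each other, the narrowest CTEPH range of the 11 genes, and the Sham libraries within 2.65, the widest Sham range. Its counts were 245, 387, 481, 280 and 228 in CTEPH and 196, 742, 61, 85 and 71 in Sham. The difference of 1.05 ± 0.42 was not called, and without Sham library s6 it was 1.51 and called, the only 1 of the 10 refits in which it was. Library s6 was not high in the other mitotic kinesins to that degree, with a level over the 10 genes without KIF18B of -1.19, where the other Sham libraries ranged from -1.65 to -1.29.

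**Figure D2:**
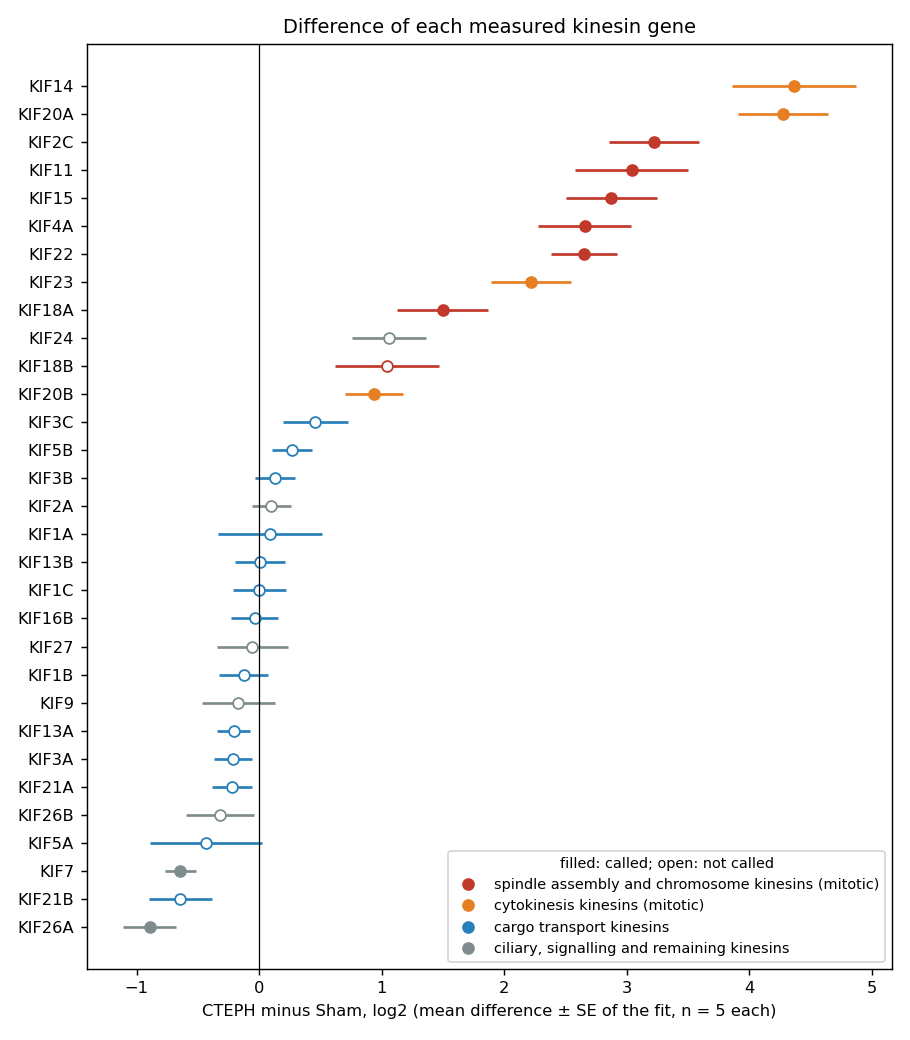
Difference of the group means, CTEPH minus Sham on the log2 scale, for each of the 31 measured kinesins, with bars of 1 SE of the fit (n = 5 each), colours for the role and filled points for called genes. The mitotic kinesins run from 0.94 to 4.36, and the cargo transport kinesins from -0.65 to 0.46 around 0.

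The CTEPH pigs differed among themselves in a way that most mitotic kinesins shared. Library s5 was the highest CTEPH library in 9 of the 11 genes, with s4 highest for KIF22 and s3 for KIF18B, and the lowest was s1 in 8 genes and s3 in 3. As the mean over the 11 genes of the log2 value minus each gene's mean over the 10 libraries, the mitotic level was 0.54, 0.82, 1.65, 2.05 and 1.48 in the CTEPH libraries, against -1.53, -0.97, -1.42, -1.26 and -1.36 in the Sham libraries. It averaged 1.31 ± 0.62 in CTEPH and -1.31 ± 0.22 in Sham (mean ± SD over 5 libraries each), so the CTEPH libraries were the more spread. Library s9, the shallowest CTEPH library, had the middle mitotic level, and library s4, the deepest, had the next to highest. Within Sham no library led to that extent: s6 was highest in 5 of the 11 genes, s8 in 3, s10 in 2 and s7 in 1. A larger SD in CTEPH than in Sham was found in 9 of the 11 mitotic kinesins and in 17 of the 20 others, and in 10886 of all measured genes. The genes come from the same 10 libraries and are not independent of each other.

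**Figure D3:**
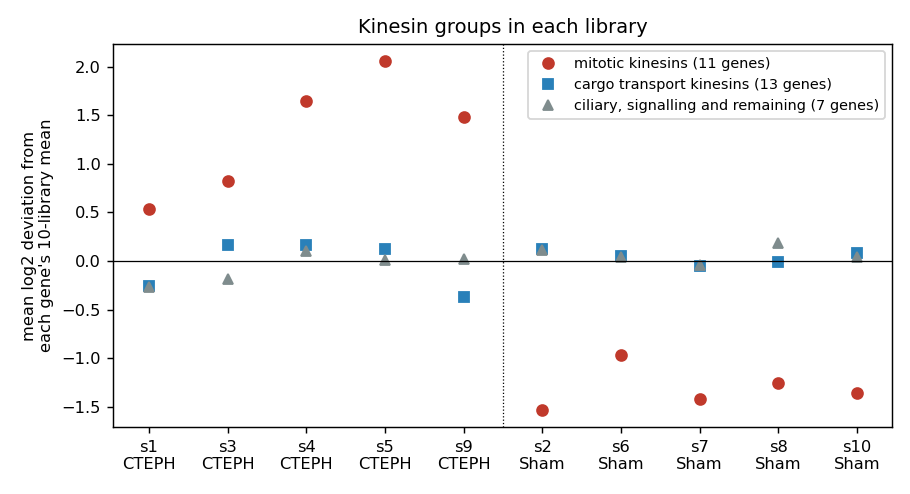
Mean log2 deviation from each gene's mean over the 10 libraries, for the 11 mitotic kinesins (circles), the 13 cargo transport kinesins (squares) and the 7 remaining kinesins (triangles), with the CTEPH libraries at the left and the Sham libraries at the right. The mitotic level spans 0.54 to 2.05 in CTEPH and -1.53 to -0.97 in Sham, while both other groups stay between -0.37 and 0.19.

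Cargo transport kinesins were not called in either direction. Of 13 measured genes, 0 were called by limma, against 4.62% of all genes in either direction, so this count lay near that share. In the same fit 1 of the 13 (KIF21B) had an unadjusted p under 0.05, against 20.3% of all genes. KIF5B, the widely expressed heavy chain of conventional kinesin and a carrier of mitochondria (chromosome 10, 42637105 to 42693551), was at 12.96, 13.16, 13.19, 13.84 and 13.27 in CTEPH libraries, against 13.04, 13.02, 13.08, 12.74 and 13.22 in Sham libraries. Library s5 stood above the rest and the other CTEPH libraries lay among or just above the Sham libraries, with a difference of 0.27 ± 0.16. KIF1B, a kinesin-3 motor of mitochondria and synaptic vesicle precursors (chromosome 6, 70495143 to 70663464), was at 13.83, 12.77, 13.07, 13.53 and 13.11 in CTEPH libraries, against 13.38, 13.29, 13.31, 13.83 and 13.12 in Sham libraries. The groups overlapped over most of their range and the difference was -0.13 ± 0.20.

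KIF1C, a carrier of dense-core vesicles and mRNA (chromosome 12, 51899762 to 51924465), was at 13.95, 14.69, 14.37, 14.32 and 13.45 in CTEPH libraries, against 14.60, 14.12, 13.92, 13.89 and 14.24 in Sham libraries. Its means were equal to within 0.0029, with an SE of 0.22, and the CTEPH libraries held both the highest and the lowest value. KIF13A, which moves endosomes and recycling cargo (chromosome 7, 13498354 to 13716844), was at 12.40, 12.58, 12.11, 12.30 and 12.32 in CTEPH libraries, against 12.90, 12.41, 12.44, 12.51 and 12.48 in Sham libraries. Apart from Sham library s2 the groups lay close together, and the difference was -0.21 ± 0.13.

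The kinesin-2 motors KIF3A and KIF3B pair with each other and with KIFAP3 to carry cargo into the cilium. KIF3A (chromosome 2, 134932339 to 135069408) was at 9.10, 9.27, 9.21, 9.63 and 9.38 in CTEPH libraries, against 9.45, 9.48, 9.26, 9.78 and 9.67 in Sham libraries. Its partner KIF3B (chromosome 17, 35914214 to 35962332) was at 9.20, 8.76, 8.91, 9.01 and 8.62 in CTEPH libraries, against 8.96, 8.61, 8.66, 8.66 and 8.95 in Sham libraries. Both overlapped between groups, with differences of -0.21 ± 0.16 for KIF3A and 0.13 ± 0.16 for KIF3B. RefSeq lays KIF3A over parts of RAD50, IL13 and IL4, and no source used here states how reads in overlapping genes were counted. The remaining kinesin-2 gene, KIF3C, had the highest difference of the transport kinesins, 0.46 ± 0.27, with means of 9.61 ± 0.57 in CTEPH and 9.15 ± 0.37 in Sham (± SD over 5 libraries).

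The neuronal motor genes KIF1A and KIF5A were not called, with differences of 0.09 ± 0.43 and -0.43 ± 0.46. KIF5A had 4, 20, 33, 12 and 6 counts in CTEPH and 13, 21, 8, 19 and 20 in Sham, so its level rests on few counts. KIF21B, which is known from neurons and lymphocytes (chromosome 10, 23444997 to 23491081), was at 7.09, 7.39, 7.36, 7.34 and 6.30 in CTEPH libraries, against 7.54, 8.33, 7.55, 7.68 and 7.61 in Sham libraries. Every CTEPH library lay below every Sham library, by at least 0.14, yet the difference of -0.65 ± 0.26 was not called. The mean level of 5 Schwann cell and neuron markers was 5.48 to 6.27 in CTEPH and 5.92 to 7.05 in Sham, with none at 0. Of the 5, 1 (SOX10) was called lower, against 1.79% of all genes, and it kept its call in 5 of the 10 refits. In the limma fit 2 of the 5 had an unadjusted p under 0.05, against 20.3% of all genes. The part of this marker level in the KIF21B and KIF5A values was not tested. The mean level of 3 measured lymphocyte markers was 7.59 to 8.03 in CTEPH and 7.04 to 8.43 in Sham, with 0 of 3 called by limma and 0 at an unadjusted p under 0.05. Over KIF13B, KIF16B and KIF21A the differences were 0.0045, -0.04 and -0.22, and all 3 overlapped between groups.

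The 7 remaining kinesins work at the cilium or in signalling or shorten microtubules. Of the 7, 0 were called higher and 2 lower, against 2.83% and 1.79% of all genes. At an unadjusted p under 0.05 the limma fit held 3 of the 7, against 20.3% of all genes. KIF7, a ciliary regulator of GLI transcription factors in Hedgehog signalling (chromosome 7, 55200591 to 55220237), was at 10.37, 10.51, 10.52, 10.17 and 10.38 in CTEPH libraries, against 11.08, 11.24, 11.06, 10.88 and 10.91 in Sham libraries. The groups were tight and separate, with SDs of 0.14 and 0.15 (CTEPH and Sham, n = 5 each), and a gap of 0.36 between the lowest Sham and the highest CTEPH library. Its difference of -0.64 ± 0.13 kept its call in all 10 refits, at -0.68 to -0.59. KIF26A, an atypical kinesin that lacks ATPase activity and in mice dampens GDNF and RET signalling in enteric neurons, was at 9.42, 10.33, 10.61, 9.95 and 9.72 in CTEPH libraries, against 10.98, 11.19, 10.55, 10.81 and 10.97 in Sham libraries. CTEPH library s4 slightly exceeded Sham library s7, and the difference was -0.89 ± 0.21. That call was lost in 6 of the 10 refits, without CTEPH library s5 or s9 or Sham library s2, s6, s8 or s10, and the difference ranged from -1.04 to -0.75 over the 10. RefSeq holds KIF26A on an unplaced sequence.

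KIF24, a centriolar kinesin that restrains cilium formation in cycling cells (chromosome 10, 32454615 to 32552763), was the only one of the 20 other kinesins with every CTEPH library above every Sham library. It was at 6.29, 5.30, 6.50, 6.13 and 6.08 in CTEPH libraries, against 4.73, 4.88, 5.07, 5.21 and 5.11 in Sham libraries. The difference of 1.06 ± 0.30 was not called, and it was called in 1 of the 10 refits, without CTEPH library s3, at 1.25. It was also called without the intensity trend. In counts, KIF24 had 37, 18, 76, 37 and 24 in CTEPH and 14, 23, 12, 15 and 14 in Sham. RefSeq has 12279 bases of KIF24 overlapping NUDT2, which differed by -0.24. KIF2A, a depolymerase related to KIF2C, differed by 0.10 ± 0.16, KIF26B by -0.32 ± 0.28, and the ciliary KIF9 and KIF27 by -0.17 ± 0.30 and -0.05 ± 0.29, and these 4 overlapped between groups.

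**Figure D4:**
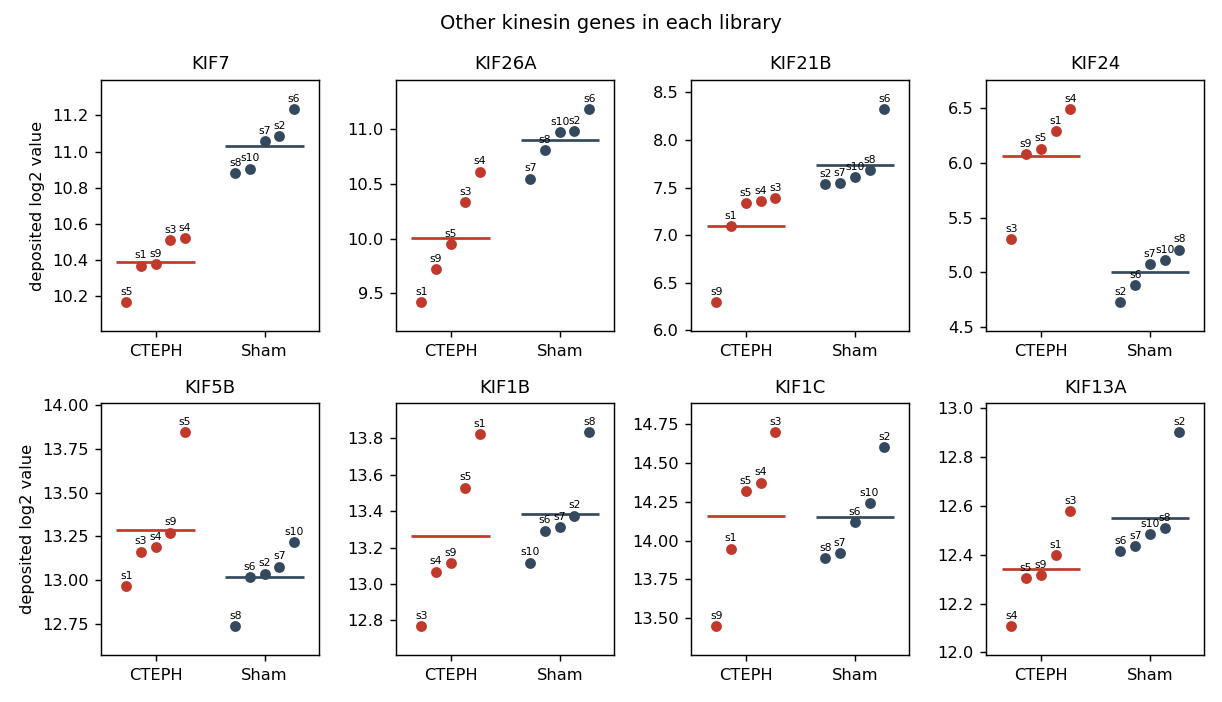
Deposited log2 value of 8 kinesins outside the mitotic list in each library, with CTEPH at the left (red) and Sham at the right (dark blue) of each panel, points named by library and horizontal bars at the group means (n = 5 each). The y axes differ between panels and do not start at 0. KIF7 and KIF21B are wholly lower and KIF24 is wholly higher in CTEPH, and the other 5 overlap.

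Of 4 kinesin motor genes with other symbols, 2 were called higher and 1 lower, against 2.83% and 1.79% of all genes. All 4 had an unadjusted p under 0.05 in the limma fit, against 20.3% of all genes. CENPE, the kinetochore motor that brings chromosomes to the spindle equator, was at 8.59 ± 0.96 in CTEPH, against 4.83 ± 0.40 in Sham, and KIFC1, a minus-end motor that focuses spindle poles, at 8.36 ± 0.50 in CTEPH, against 5.92 ± 0.17 in Sham (± SD over 5 libraries). Both were called higher, with differences of 3.76 ± 0.41 and 2.44 ± 0.25. KIFC2, a motor known from neurons, was called lower at -1.04 ± 0.25, a call kept in 4 of the 10 refits, and KIFC3 was uncalled at -0.46 ± 0.19.

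Most genes whose products bind or control the mitotic kinesins were higher in CTEPH as well. Of 17 measured partners and regulators, 15 were called higher and 0 lower, against 2.83% and 1.79% of all genes. Their median difference was 2.48, against -0.03 over all genes. The list was drawn up with earlier results of these data known, so its count supports nothing by itself. The 4 largest differences were those of the mitotic cyclin gene CCNB1 (4.04 ± 0.38), the checkpoint gene BUB1B (3.81 ± 0.42), the spindle and hyaluronan-binding gene HMMR (3.40 ± 0.39) and the mitotic kinase gene CDK1 (3.38 ± 0.40). Direct partners of single kinesins belonged to the called genes: the citron kinase gene CIT, whose product binds KIF14, differed by 2.48 ± 0.37, RACGAP1, the partner of KIF23, by 2.52 ± 0.29, and PRC1, the partner of KIF4A, by 2.91 ± 0.35. These 3 were chosen after their values were seen. AURKB was called at 0.90 ± 0.24 but kept its call in 1 of the 10 refits, and the uncalled genes were ECT2 (0.73 ± 0.26) and INCENP (0.75 ± 0.22).

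The binding partners of the transport kinesins carry no call here. Of 14 kinesin light chain and cargo adaptor genes, 0 were called by limma in either direction, against 4.62% of all genes. In that fit 3 had an unadjusted p under 0.05, a share near the 20.3% of all genes. The median difference was -0.02, with single genes from -1.24 to 0.40. The lowest was FEZ1 (-1.24 ± 0.34), which was called in 1 of the 10 refits. Only KIFBP (0.29 ± 0.13) had every CTEPH library above every Sham library, against 3.70% of all genes. Of 21 dynein and dynactin genes, which make up the motor of the opposite direction, 2 were called higher and 0 lower. Over all genes 2.83% were called higher and 1.79% lower. At an unadjusted p under 0.05 the limma fit held 6 of the 21, against 20.3% of all genes, and the median difference was 0.20. The 2 called genes were DYNC1I1, an intermediate chain (0.99 ± 0.23, kept in 4 of the 10 refits), and DYNLL1, a light chain (1.25 ± 0.26, kept in 9).

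Transcripts of some genes of the microtubule tracks and their modifiers were higher in CTEPH. Of 19 genes of tubulins and microtubule modifiers, 5 were called higher and 0 lower, against 2.83% and 1.79% of all genes. At an unadjusted p under 0.05 the limma fit held 9 of the 19, against 20.3% of all genes, and the median difference was 0.46. The largest differences among the 5 were those of STMN1, which binds free tubulin and destabilises microtubules (2.04 ± 0.22), TUBB2B (1.02 ± 0.24), TUBB2A (0.96 ± 0.23) and TUBB (0.63 ± 0.14), and the fifth was TUBA1B (0.58 ± 0.12). STMN1 kept its call in 10 of the 10 refits, TUBA1B in 8, TUBB in 5, and TUBB2A and TUBB2B in 3 each. TUBB2A and TUBB2B are near-identical copies, so how reads were shared between them is uncertain. Intraflagellar transport and the cilium, which the kinesin-2 motors serve, were covered by 17 genes. Of these, 0 were called higher and 2 lower, against 2.83% and 1.79% of all genes. The 2 were IFT172 (-0.54 ± 0.11) and IFT140 (-0.60 ± 0.15). At an unadjusted p under 0.05 the limma fit held 3 of the 17, against 20.3% of all genes, and the median difference was -0.01. IFT172 kept its call in 9 of the 10 refits and IFT140 in 2.

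**Figure D5:**
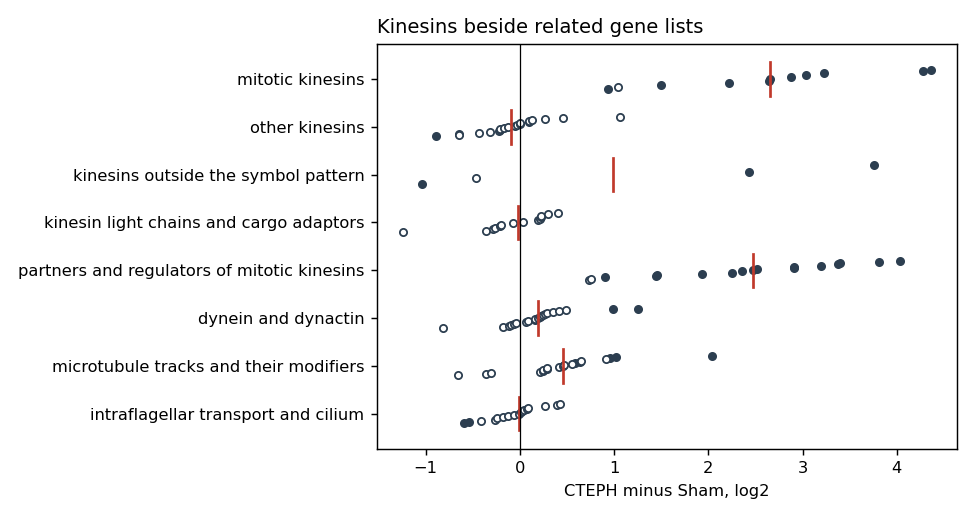
Difference of each measured gene, CTEPH minus Sham on the log2 scale, for the 11 mitotic and the 20 other kinesins and for 6 related gene lists, with filled points for called genes and red bars at the list medians. The mitotic kinesins and their partners have medians of 2.66 and 2.48, and the other kinesins and the cargo adaptors have medians of -0.09 and -0.02.

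Which cells carried the mitotic kinesin transcripts was not measured. The mean level of 5 macrophage markers was 9.43 to 10.20 in CTEPH and 9.07 to 9.76 in Sham, with 0 of 5 called by limma. In that fit 2 of the 5 had an unadjusted p under 0.05, against 20.3% of all genes, and these went opposite ways. CD163 differed by 0.91 ± 0.32 and CD68 by -0.50 ± 0.20. For 5 fibroblast markers the mean level was 12.95 to 13.90 in CTEPH and 13.14 to 13.76 in Sham, with 0 called and 1 at an unadjusted p under 0.05. For 4 endothelial markers it was 11.99 to 12.56 in CTEPH and 12.30 to 12.90 in Sham, and all 4 differences were negative, at -0.78 to -0.23. Of the 4, 1 (TEK) was called lower, against 1.79% of all genes, and it kept its call in 5 of the 10 refits. In the limma fit 2 of the 4 had an unadjusted p under 0.05, against 20.3% of all genes. For 5 smooth muscle and pericyte markers the mean level was 11.27 to 12.38 in CTEPH and 11.86 to 12.47 in Sham, with 0 called by limma and 2 at an unadjusted p under 0.05. The 1 measured adipocyte marker was at 2.54 to 5.53 in CTEPH and 2.89 to 7.08 in Sham and not called, and 3 ciliated cell markers were not analysed here. None of the measured markers was at 0 in any library, and the part of these cells in the mitotic kinesin levels was not tested.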

How the data were processed

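RNA of right ventricular biopsies from 5 CTEPH and 5 Sham pigs was sequenced, 1 library per pig. The labels give the molecule as polyA RNA and name a stranded total RNA kit. The submitters' processing notes list bcl2fastq 2.18.12, cutadapt 1.15, FastQC 0.11.5, featureCounts, edgeR 3.36.0, limma 3.50.0 and build Sscrofa11.1, while the aligner, annotation, strand setting and gene filter were not given in the sources used here. Log2 values, 1 per gene and library, were deposited, with library medians of 9.305 to 9.308, as quantile normalization by the authors would leave them, so a change shared by most genes cannot appear.

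Up to a log2 value of 10.42, 107188 values (68.5%) were read back as whole counts c: each deposited value equalled the mean over libraries of log2(2c + 1) at its rank, to within 5e-09 (tolerance 1e-06), after placing 5 skipped counts. Counts could be larger by a common factor. Relative depth was the median ratio to the geometric mean over 8180 genes with at least 5 counts in every library. Total counts could not be computed, since high values were not read back.

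Ensembl identifiers were given symbols from a lookup table (12378 of 15638 genes matched) and positions from RefSeq of Sscrofa11.1 by symbol. CTEPH was set against Sham in limma 3.58.1 (R 4.3.3) with moderated variances with an intensity trend, no covariate, two-sided, Benjamini-Hochberg over 15638 genes. The members and gene lists were chosen with earlier results of these data known. All 31 members are accounted for. Every library is given for the mitotic, called and 6 textbook transport kinesins, and also for KIF21B and KIF24, which were added after their values were seen. The fit and the count recovery were tested on simulated data. The alternatives were leaving out each library, dropping the lowest 25% of genes, no trend, robust moderation, library weights, median centring and voom on the read-back counts of 9252 genes.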

Additional observations from a re-analysis of the deposited data

Results flagged for a closer look

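In each group of 5 libraries the distance of the highest or lowest library to its neighbour was compared with the whole range, over 62 groups (31 genes in CTEPH and in Sham). In 3 of them it exceeded 0.71 of the range, and chance flags about 1 in 20 groups. KIF21B was at 6.30 in CTEPH library s9, where the other CTEPH libraries ranged from 7.09 to 7.39. The same gene was at 8.33 in Sham library s6, where the other Sham libraries ranged from 7.54 to 7.68. KIF13A was at 12.90 in Sham library s2, where the other Sham libraries ranged from 12.41 to 12.51. The high value of KIF18B in Sham library s6 did not reach this distance, because the other Sham libraries were spread as well.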

How the results depend on the processing

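When each library was left out in turn, 8 to 11 kinesins were called higher, 8 to 10 of the mitotic kinesins were called, 1 to 2 kinesins were called lower, and 1 to 3 kinesins outside the mitotic list were called. The mitotic median difference ranged from 2.53 to 2.91. Without the intensity trend 1 kinesin was called lower, as KIF26A lost its call, as did KIF20B, and KIF24 gained one. Dropping the lowest genes left 21 kinesins, 6 of them mitotic, and 5 were called higher, all 5 mitotic. The called mitotic kinesins KIF14, KIF2C, KIF15, KIF4A and KIF18A were among the genes dropped for low values. No called kinesin that remained lost its call. With voom on the read-back counts, 10 of 11 mitotic kinesins were called, and 0 kinesins lower and 0 outside the mitotic list, since KIF7 and KIF26A were not read back in every library and were left out. Of 478 differences of single genes under the alternatives, 427 kept direction and call, 22 lost the call, 3 gained it and 26 changed sign. The 26 belong to 7 uncalled kinesins outside the mitotic list, with differences near 0, and 22 of them arose when a library was left out. Their leave-out ranges were -0.13 to 0.10 for KIF16B, -0.20 to 0.12 for KIF27, -0.088 to 0.19 for KIF13B, -0.17 to 0.36 for KIF1A, -0.13 to 0.18 for KIF1C, -0.015 to 0.17 for KIF2A and -0.30 to 0.0071 for KIF9. Library weights gave 0.074 for KIF16B and 0.0058 for KIF27, and voom gave 0.017 for KIF16B and 0.015 for KIF27. The median of the other kinesins was 0.016 with voom. Over all genes 723 were called, 401 to 961 with a library left out (fewest without CTEPH s4 or s5 or Sham s2, s6, s7 or s10, with 401, 475, 475, 425, 462 and 417), 1269 with library weights, 483 without the lowest genes, 416 with voom (9252 genes) and 588 without the trend. Depth limits KIF14 most, with 1 to 11 counts in the Sham libraries. No paired analysis was possible because each library number occurs once and links no CTEPH pig to a Sham pig.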

Other observations

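Of 4 pairs of kinesin genes that lie near each other on a chromosome, KIF14 and KIF21B lie 267 kb apart on chromosome 10 and differed by 4.36 and -0.65 (CTEPH minus Sham, log2). Also on chromosome 10, KIF27 and KIF24 lie 1337 kb apart and differed by -0.05 and 1.06. On chromosome 13, KIF15 and KIF9 lie 1973 kb apart and differed by 2.88 and -0.17. On chromosome 14, KIF20B and KIF11 lie 2531 kb apart and differed by 0.94 and 3.04.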
